A study of Rattus norvegicus with 4 samples.

Results

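Cholesterol synthesis and its control were followed through 8 genes in the hippocampus of running and sedentary rats, namely Hmgcs1, Idi1, Fdps, Fdft1, Sqle, Lss, Dhcr7 and Insig1. They were taken as every probe whose transcript accession on the array carries one of these 8 symbols in RefSeq, which gave 14 probes for 8 of the 8899 genes that could be named, or 14 of the 41012 probes on the array. Insig1 had 4 probes, Hmgcs1, Idi1 and Fdps had 2 each, and the others had 1. All 8 genes were bright on every chip, and in neither running group did any of them pass the threshold for a change. Their mean ratios of running over sedentary lay between -0.16 and 0.07 on the log2 scale without resistance and between -0.13 and 0.09 with resistance, and all 8 intervals held 0 in both comparisons.

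Neurons and glia make their own cholesterol, since lipoproteins of the blood do not cross the blood-brain barrier, and myelin, synapses and synaptic vesicles need much of it. Synthesis runs from acetyl-CoA through mevalonate and the isoprenoid farnesyl diphosphate to squalene, lanosterol and then cholesterol. When membrane cholesterol is low, the transcription factor SREBP-2 is released from the endoplasmic reticulum and raises the genes of this pathway together with genes of lipoprotein uptake, and the INSIG proteins hold it back when sterols are plentiful.

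Male Wistar rats, 10 weeks old at the start, were housed individually and fell into 3 groups: sedentary rats in standard cages (Sed, n = 10), rats with a running wheel that carried no load (WR, n = 8) and rats with a loaded wheel (RWR, n = 8). Running was voluntary and lasted 4 weeks, and in RWR the load was 4.5 g in the first week and was then raised to 30% of body weight. No strain, genotype or drug differed between the groups, and hippocampi were taken on the day after the last running day. RNA was pooled within each group before labelling with a fluorescent dye, Cy3 or Cy5, so each group is 1 pool: WR and Sed were hybridized together on chips 1 and 2, and RWR and Sed on chips 3 and 4. The running pool carried Cy5 on chips 1 and 3 and Cy3 on chips 2 and 4, which is called a dye swap. The RNA amounts in the study's methods correspond to 3 replicates per pool, so not every rat of a group entered it if a replicate was 1 rat; which rats these were, and whether the same sedentary pool was used on all 4 chips, is not given in the sources used here. Since both chips of a pair hold the same pools, there is 1 biological replicate per group, no test between running and sedentary rats could be made, and every error below is one of the chips. In a pool of whole hippocampus, fewer cells of a type and less RNA per cell cannot be told apart.

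The ratios given here are log2 of running over sedentary, turned the same way on all 4 chips, and a gene with several probes is represented by its brightest. The median processed signal, the brightness of a spot after background subtraction and dye normalization, was 62.2 to 78.3 per dye and chip. Turned in this way, the ratios of the chips of a pair ran against each other over all probes (Pearson r = -0.761 for chips 1 and 2 and -0.686 for chips 3 and 4), while chips with the same dye on the running pool ran together (r = 0.712 for chips 1 and 3 and 0.70 for chips 2 and 4). A gene was called where the 2 chips of a pair each put it past 1.5-fold, or each under 0.75-fold, and each gave a deposited p-value under 0.01. Markers of neurons, astrocytes, oligodendrocytes and microglia with a named probe were well above background, apart from the oligodendrocyte gene Ugt8 in the WR pair, as were 5 of 7 hippocampus markers, among them Neurod1 and Wfs1, and the other 2 had no named probe.

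The promoters of the genes are shown because the members have in common their control by SREBP-2, which is known to act with the factors NF-Y, at CCAAT boxes, and Sp1, at GC boxes. RefSeq promoters (build GRCr8) were at hand for 6 of the 8 genes, and were searched on both strands over the 250 bases before the start site. The letters CCAAT were found in 5 of these 6, against 34.0% of 33469 promoters of the same length, and GGGCGG in 5 of 6, against 30.5%. The classical sterol regulatory element, searched as TCACNCCAC, was found in 0 of 6, against 0.974% of all promoters, and the E-box CACGTG in 1 of 6, that of Insig1, against 5.59%. Only exact letters within the 250 bases were searched. A sterol regulatory element that differs from them or lies elsewhere would be missed, so its absence was not shown. These motifs were chosen after the promoters had been seen, and a match is a description of the sequence. The stretches below run from 20 bases before the first to 20 bases after the last CCAAT box, 5′ to 3′ on the strand of the gene, with the box in capitals as CCAAT or as its reverse complement ATTGG; the promoter of Dhcr7 held none, and in Hmgcs1 a GC box lies between the CCAAT boxes.
Hmgcs1, chr2:53382096-53382195, plus strand: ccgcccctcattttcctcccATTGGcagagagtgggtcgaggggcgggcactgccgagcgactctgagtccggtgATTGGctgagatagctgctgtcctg
Idi1, chr17:66547535-66547610, minus strand: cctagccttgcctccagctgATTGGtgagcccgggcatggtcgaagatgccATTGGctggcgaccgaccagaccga
Fdps, chr2:176804877-176804966, minus strand: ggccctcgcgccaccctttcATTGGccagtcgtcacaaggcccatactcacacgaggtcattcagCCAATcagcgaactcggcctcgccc
Lss, chr20:12118288-12118332, minus strand: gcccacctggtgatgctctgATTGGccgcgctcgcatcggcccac
Insig1, chr4:8057938-8057982, minus strand: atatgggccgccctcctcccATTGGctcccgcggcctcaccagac
Hmgcs1, Idi1 and Fdps, the 3 genes of the mevalonate part, each carried 2 CCAAT boxes, and Lss and Insig1 carried 1.

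Hmgcs1, Idi1 and Fdps act before squalene. Hmgcs1 encodes the cytosolic HMG-CoA synthase, an early step of the pathway. At its brightest probe (A_43_P11890) the processed signal in WR was 3609 on chip 1 and 4681 on chip 2, against 4254 and 3962 in Sed. In RWR it was 4960 on chip 3 and 4614 on chip 4, against 5732 and 4292 in Sed. The running pool was the dimmer one where it carried Cy5 and the brighter one where it carried Cy3, in both pairs. The log2 ratios of chips 1 and 2 were -0.24 and 0.24, with a mean of 0.0016 (95% interval -0.28 to 0.29), and those of chips 3 and 4 were -0.21 and 0.10, with a mean of -0.05 (-0.34 to 0.23). These intervals come from the deposited error of the ratio on each chip, taken as independent between the chips of a pair, and cover the measurement only. The second probe of Hmgcs1 gave 0.19 and -0.03 in WR and 0.12 and 0.01 in RWR, so that its chips ordered the other way round; its pair means were 0.08 and 0.07.

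Idi1 encodes isopentenyl diphosphate isomerase, which makes the starter unit of isoprenoid chains. Its signal in WR was 2248 and 2305 on chips 1 and 2, against 2791 and 2331 in Sed, and in RWR 2538 and 2415 on chips 3 and 4, against 2986 and 2342. Of all 14 probes, 4 were below 0 on both WR chips, among them probes of Fdps and Insig1. At the brightest probes, Idi1 was the only member that was dimmer in WR than in Sed on both chips. The log2 ratios were -0.31 and -0.02 in WR, with a mean of -0.16 (95% interval -0.45 to 0.12), and -0.23 and 0.04 in RWR, with a mean of -0.10 (-0.38 to 0.19). The WR mean corresponds to 0.893-fold, and its interval of 0.733- to 1.09-fold reached past the 0.75-fold threshold, which at the brightest probes no other did in either comparison. The second Idi1 probe was below 0 on all 4 chips, with ratios of -0.13 and -0.05 in WR (mean -0.09) and of -0.17 and -0.10 in RWR (mean -0.13, with an interval from 0.748-fold that also reached past 0.75-fold). Both probes of Idi1 thus had means below 0 in both comparisons, with intervals that held 0.

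Fdps encodes farnesyl diphosphate synthase, at the branch point to sterols and to the lipid anchors of proteins. Its signal in WR was 4220 and 4470 on chips 1 and 2, against 4799 and 3979 in Sed, and in RWR 4464 and 4398 on chips 3 and 4, against 5355 and 4065. As for Hmgcs1, the sign followed the dye, with log2 ratios of -0.19 and 0.17 in WR and of -0.26 and 0.11 in RWR. The means were -0.0088 (95% interval -0.29 to 0.27) and -0.07 (-0.36 to 0.21). The second probe lay close to 0 on every chip, between -0.10 and -0.02, with means of -0.03 in WR and -0.06 in RWR.

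**Figure D1:**
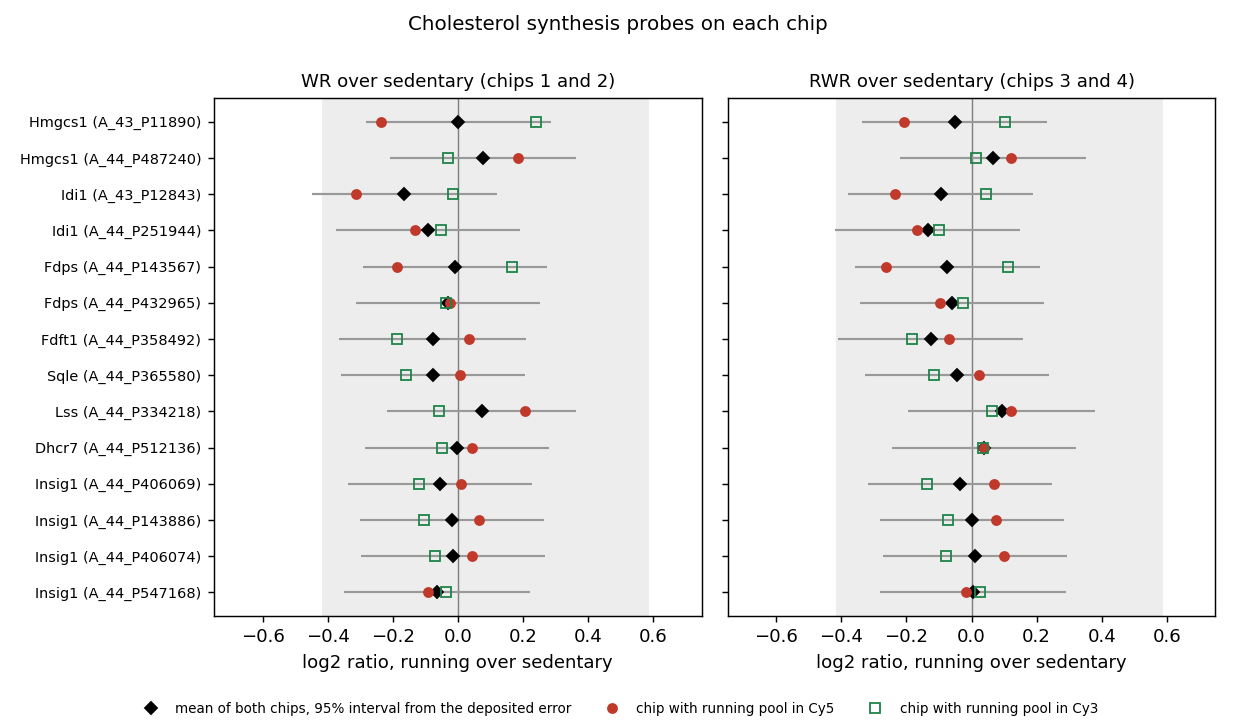
Log2 ratio of running over sedentary at each of the 14 probes, with WR on the left and RWR on the right; filled circles are the chip with the running pool in Cy5, open squares the chip with it in Cy3, diamonds the mean of both with its 95% interval from the deposited errors, and the shaded band lies between 0.75-fold and 1.5-fold. All pair means stay inside the band and all intervals cross 0, and the circle and square of a probe often lie on opposite sides of 0.

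Fdft1 acts in making squalene, and Sqle, Lss and Dhcr7 act from squalene to cholesterol. Fdft1 encodes squalene synthase, the first enzyme committed to sterols. Its signal was 275 and 257 in WR on chips 1 and 2, against 269 and 293 in Sed, and 313 and 266 in RWR on chips 3 and 4, against 329 and 301. It was dimmer in RWR than in Sed on both chips, and in WR on 1 of 2. The log2 ratios were 0.03 and -0.19 in WR, with a mean of -0.08 (95% interval -0.36 to 0.21), and -0.07 and -0.18 in RWR, with a mean of -0.13 (-0.41 to 0.16), which was the lowest RWR mean among the 8 genes.

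Sqle encodes squalene epoxidase, the oxygen-dependent step at which the pathway is also held in check. Its signal was 2873 and 2478 in WR on chips 1 and 2, against 2861 and 2767 in Sed, and 3164 and 2551 in RWR on chips 3 and 4, against 3112 and 2761. The pools were nearly equal where running carried Cy5, and running was the dimmer where it carried Cy3. The ratios were 0.01 and -0.16 in WR, with a mean of -0.08 (95% interval -0.36 to 0.21), and 0.02 and -0.11 in RWR, with a mean of -0.05 (-0.33 to 0.24).

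Lss encodes lanosterol synthase, which closes the sterol rings. Its signal was 266 and 237 in WR on chips 1 and 2, against 230 and 247 in Sed, and 292 and 240 in RWR on chips 3 and 4, against 268 and 229. Running was the brighter pool on 3 of 4 chips, including both RWR chips. The ratios were 0.21 and -0.06 in WR, with a mean of 0.07 (95% interval -0.22 to 0.36), and 0.12 and 0.06 in RWR, with a mean of 0.09 (-0.19 to 0.38). These were the highest means of the 8 genes as deposited, but in RWR the mean was 0.0059 after loess without background correction and 0.01 after normexp and loess, below Dhcr7 in both, and in WR it was 0.02 after normexp, below Hmgcs1. Both means were above 0 and those of Fdft1 and Sqle, its neighbours in the pathway, below 0, with overlapping intervals.

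Dhcr7 encodes the reductase of the last step to cholesterol. Its signal was 1456 and 1309 in WR on chips 1 and 2, against 1411 and 1354 in Sed, and 1554 and 1382 in RWR on chips 3 and 4, against 1512 and 1348. The pools were close to each other on all 4 chips. The ratios were 0.04 and -0.05 in WR, with a mean of -0.0022 (95% interval -0.29 to 0.28), and 0.04 and 0.04 in RWR, with a mean of 0.04 (-0.25 to 0.32).

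Insig1 encodes the endoplasmic reticulum protein that retains the SREBP complex, and is itself a target of SREBP, so that its transcript is widely read as a gauge of the pathway. Its brightest probe had a signal of 5714 and 5312 in WR on chips 1 and 2, against 5670 and 5771 in Sed, and of 7052 and 5359 in RWR on chips 3 and 4, against 6727 and 5894. Running was slightly the brighter pool in Cy5 and the dimmer in Cy3, in both pairs. The ratios were 0.01 and -0.12 in WR, with a mean of -0.05 (95% interval -0.34 to 0.23), and 0.07 and -0.14 in RWR, with a mean of -0.03 (-0.32 to 0.25). The means of the other 3 probes lay between -0.06 and -0.01 in WR and between 0.0013 and 0.01 in RWR. The 4 probes thus gave closely similar means in each comparison, although their signals span a wide range.

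**Figure D2:**
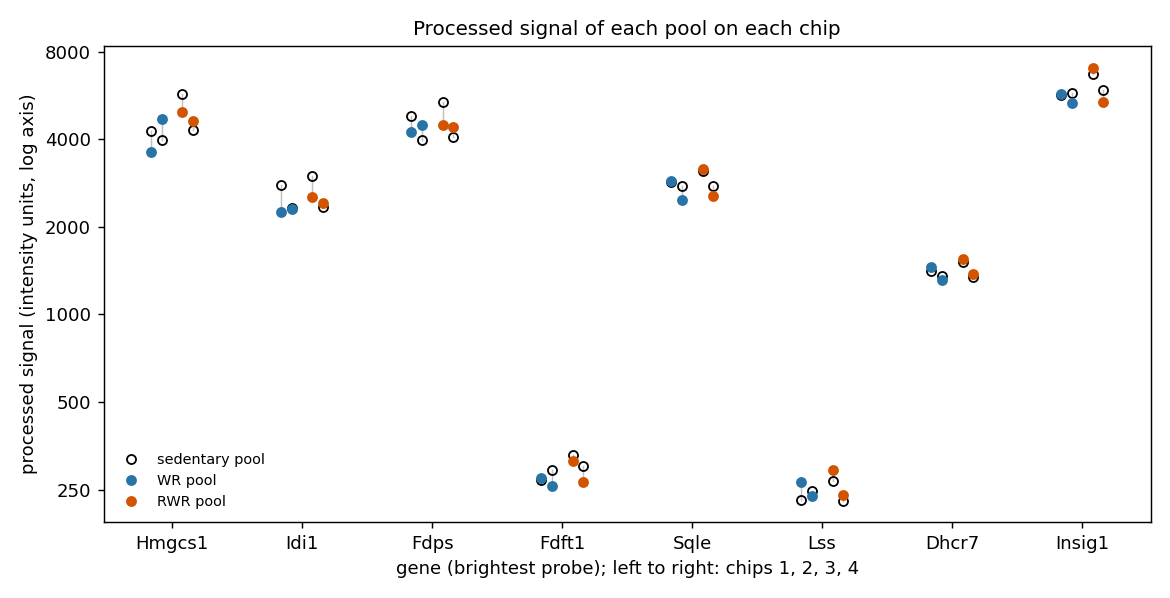
Processed signal of each pool at the brightest probe of the 8 genes, on a log axis, with chips 1 to 4 from left to right within each gene; open circles are the sedentary pool, blue circles WR and orange circles RWR, and a grey line joins the pools of a chip. The sedentary and running circles of a chip lie close together at every gene, and signals of 1 gene differ between chips as much as between pools.

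As a group, the 8 genes were well measured and near 0. All 14 probes cleared background by the scanner software's flag on all 4 chips, in each dye, with signals at the brightest probes from 229 to 7052. None was called in either direction in WR, where 0.0% of 8899 named genes were called up and 0.0674% called down, or in RWR, where 0.0% were called up and 0.0674% down of 8898. With so few calls over all genes, a count of 0 among 8 is the usual outcome for any genes. None passed a threshold of 1.2-fold in 1 direction on both chips without the p-value either, against 0.955% of named genes above and 0.629% below it in WR and 0.618% and 2.15% in RWR. The deposited p-values of the brightest probes ran from 0.130 to 0.978 on the WR chips and from 0.201 to 0.907 on the RWR chips, each for 1 chip and its measurement error. Taken over all 8 genes, the intervals reached from 0.733- to 1.29-fold in WR and from 0.752- to 1.30-fold in RWR, and 7 of 8 in WR and 8 of 8 in RWR lay inside both thresholds. The median interval reached 0.28 to either side of its mean on the log2 scale in both comparisons, and a mean closer to 0 than this could not be told from 0 with these chips.

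The median log2 ratio of the 8 genes was -0.03 in WR and -0.05 in RWR, against 0.0016 and -0.0047 over all named genes. The mean was below 0 for 6 of 8 genes in each comparison, and over all 14 probes for 11 in WR and 8 in RWR. All named genes had medians near 0, so among them a mean below 0 is about as frequent as one above 0. Both comparisons were made against sedentary RNA, of 1 pool or more. Below 0 on both chips was 1 gene in WR (Idi1) and 1 in RWR (Fdft1), where 11.6% and 15.7% of named genes were, or 15.1% and 16.3% of those well above background in that pair. Above 0 on both chips were 0 genes in WR and 2 in RWR (Lss and Dhcr7), where 12.2% and 12.5% of named genes were, or 14.7% and 15.8% of those well above background. These counts are close to the shares over all genes, of which 8 genes would give about 1 each. The largest size of a ratio among the members, that of Idi1 in WR and of Fdft1 in RWR, was reached by 6.39% and 13.7% of the 5929 named genes that cleared background on all 4 chips in each dye.

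The part of the ratios that changed with the dye was larger than their mean. With the half-difference of a pair's chips as a measure of what followed the dye, the median size of this term was 0.12 in WR and 0.09 in RWR, against 0.06 and 0.06 for the ratio itself. It was larger than the ratio in 7 of 8 genes in WR and in 5 of 8 in RWR. These are the genes with opposite signs on the chips of a pair. Opposite signs, or a ratio of 0 on a chip, occurred in 70.0% and 67.1% of the 5929 named genes well above background. Over those 5929 genes the median size of the term was 0.09 in WR and 0.09 in RWR, against 0.04 and 0.05 for the ratio. A dye term larger than the ratio was thus not particular to the members. The term had the same sign in both pairs for 8 of 8 genes, against 84.7% of the 5929 named genes well above background, and its correlation between pairs was 0.934 over the 8 genes, which share slide and labelling, against 0.857 over the 5929. Hmgcs1, Idi1 and Fdps had it below 0, running dimmer in Cy5, and Fdft1, Sqle, Lss, Dhcr7 and Insig1 above 0. A single chip would have placed Hmgcs1 at -0.24 or at 0.24 in the same pools.

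**Figure D3:**
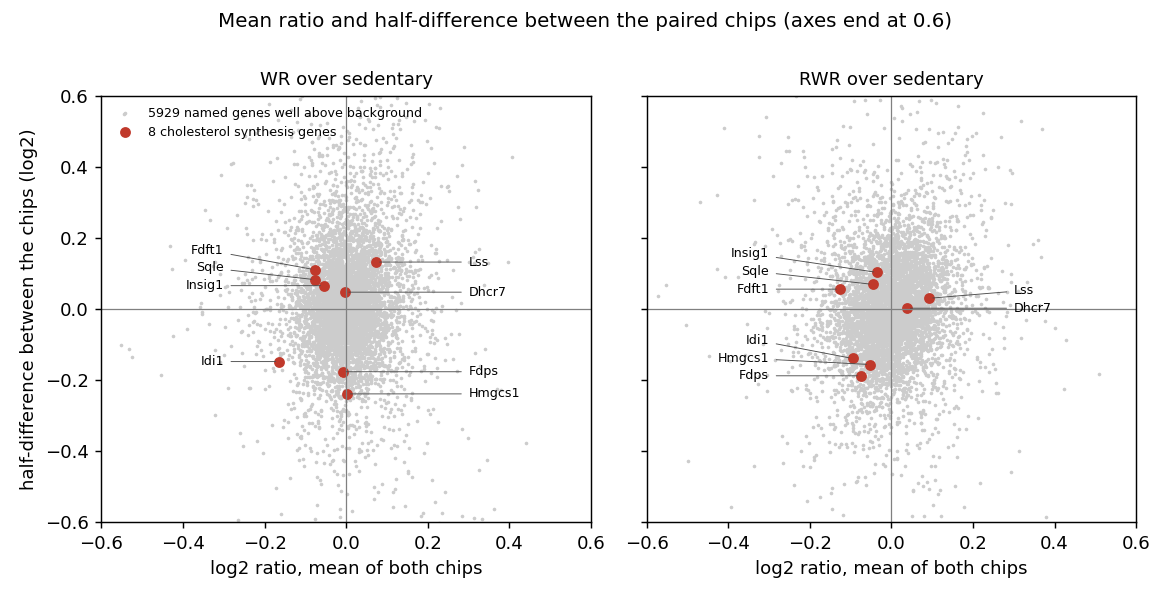
Mean log2 ratio of each pair (x axis) against the half-difference between its chips (y axis, log2), for WR on the left and RWR on the right; grey points are 5929 named genes well above background and red points the 8 cholesterol synthesis genes. In each panel the red points spread further along the y axis than along the x axis, within the grey cloud, and Hmgcs1, Idi1 and Fdps lie below 0 on the y axis in both.

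Loaded running was set against unloaded running by taking chips with the same dyes (chip 3 minus chip 1, and chip 4 minus chip 2), in which a dye term common to both drops out. The sedentary pool was assumed to be the same in both pairs, which is not known. A difference between sedentary pools would enter these values. The difference of RWR minus WR had a median of 0.02 over the 8 genes and ran from -0.07, for Fdps, to 0.07, for Idi1. In 5 of 8 genes the 2 differences had opposite signs. Idi1 was the higher in RWR on both (0.08 and 0.06), as was Sqle (0.02 and 0.04), and Fdps the lower on both (-0.08 and -0.05). At the second probes, Idi1 was the lower in RWR on both (-0.04 and -0.05), so its probes ran in opposite directions, and Fdps was split (-0.07 and 0.01). The median size of the difference was 0.04 over the 8 genes, against 0.06 over the 5929 named genes well above background, and no replicate pool was at hand to test it.

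The rest of the pathway was described by 6 lists of sterol and fatty acid genes, of which 41 of 61 genes outside the 8 had a named probe and 36 cleared background. None of the 41 was called in either comparison. Their median was -0.01 in WR and 0.02 in RWR. In the synthesis pathway, 13 further genes were measured, all well above background, and their ratios lay between -0.13 and 0.16 in WR (median -0.03) and between -0.08 and 0.08 in RWR (median 0.01). Acat2, the cytosolic thiolase at its entry, had means of -0.09 and 0.02, and Mvk, mevalonate kinase, of -0.07 and -0.02. Among the late enzymes, Sc5d, a sterol desaturase, had the highest WR mean, 0.16 (95% interval -0.12 to 0.45), from chips at 0.27 and 0.06. Tm7sf2, a sterol reductase, had -0.10 and -0.01, and Hsd17b7, a ketosteroid reductase, -0.03 and 0.08. Lbr had no named probe.

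Sensors and uptake genes were measured less completely. Srebf2, the gene of SREBP-2 itself, was below 0 on all 4 chips, at -0.11 and -0.13 in WR (mean -0.12, 95% interval -0.41 to 0.17) and at -0.06 and -0.04 in RWR (mean -0.05). Its WR mean was -0.09 without background correction and -0.08 after normexp, each with loess. The rule that named it asked for equal signs on both chips of a pair, and the share of named genes below 0 on all 4 chips is not given here. Insig2, the second INSIG gene, had means of 0.08 in WR and -0.08 in RWR, of which the latter was -0.0028 without background correction and 0.0096 after normexp, each with loess. Srebf1, Scap, Npc1, Lrp1 and Lrp8 had no named probe. Scarb1, a lipoprotein receptor, had means of -0.01 in WR, which turned to 0.0022 and 0.0098 under the same settings, and 0.06 in RWR. Lipa, the lysosomal lipase, had means of -0.06 and 0.02, and Npc2, which carries cholesterol out of lysosomes, of 0.04 and -0.06.

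Of the genes of sterol efflux and turnover, 5 were well above background. Their means ran from -0.04 to 0.14 in WR (median 0.12) and from -0.03 to 0.16 in RWR (median 0.09). Those named here, Abca1, Ch25h and Cyp27a1, had low mean signals of 134, 133 and 103. Abca1, the cholesterol exporter, was above 0 on all 4 chips (0.05 and 0.19 in WR, 0.06 and 0.25 in RWR), with means of 0.12 (95% interval -0.18 to 0.42) and 0.16 (-0.14 to 0.45). Without background correction and after normexp, these were lower, at 0.07 and 0.08 in WR and at 0.04 and 0.06 in RWR. Ch25h, a cholesterol hydroxylase, had means of 0.14 in WR and 0.14 in RWR, of which the WR value was 0.03 without background correction and turned to -0.025 after normexp. Cyp27a1, a sterol hydroxylase, had means of 0.12 and -0.03, and in WR 0.07 without background correction. Fasn, Scd and Elovl6, fatty acid enzymes under SREBP, had means of -0.02, -0.14 and -0.06 in WR and of 0.11, 0.04 and -0.0071 in RWR, where Scd turned to -0.0049 after normexp. All of these intervals held 0.

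Oligodendrocytes, the myelin-forming cells, make much of the brain's cholesterol, and their 8 markers were read beside the synthesis genes. The means of 8 of 8 markers were below 0 in both comparisons, which would not be independent if they shared 1 sedentary pool. Among them Ugt8, not well above background in the WR pair, had WR chips at 1.42 and -1.54, so the sign of its WR mean says little. The share of all named genes with means below 0 in both comparisons is not given here. Below 0 on both chips were 4 markers in WR and 3 in RWR. Among named genes 11.6% and 15.7% were, or 15.1% and 16.3% of those well above background. The markers had medians of -0.07 in WR and -0.10 in RWR, and none was called. Their summed signal was 65820 against 69770 in Sed on chip 1, 59330 against 61700 on chip 2, 70210 against 78840 on chip 3 and 58470 against 63590 on chip 4. Running was thus the dimmer pool on all 4 chips, by 0.06 to 0.17 on the log2 scale. Mbp, myelin basic protein, had a mean of -0.07 in WR and of -0.24 in RWR (95% interval -0.53 to 0.04), and Cldn11, the claudin of myelin, of -0.19 and -0.13. The summed signal of 7 astrocyte markers ran with the dye, between -0.07 and 0.09 over the chips, as did that of 6 neuron markers, between -0.06 and 0.19. Of the choroid plexus markers, Ttr, transthyretin, was called lower in WR, at -0.72 and -0.99, while 4 of the 6 markers were not well above background there. The part of these cell types in the ratios of the cholesterol genes was not tested.

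**Figure D4:**
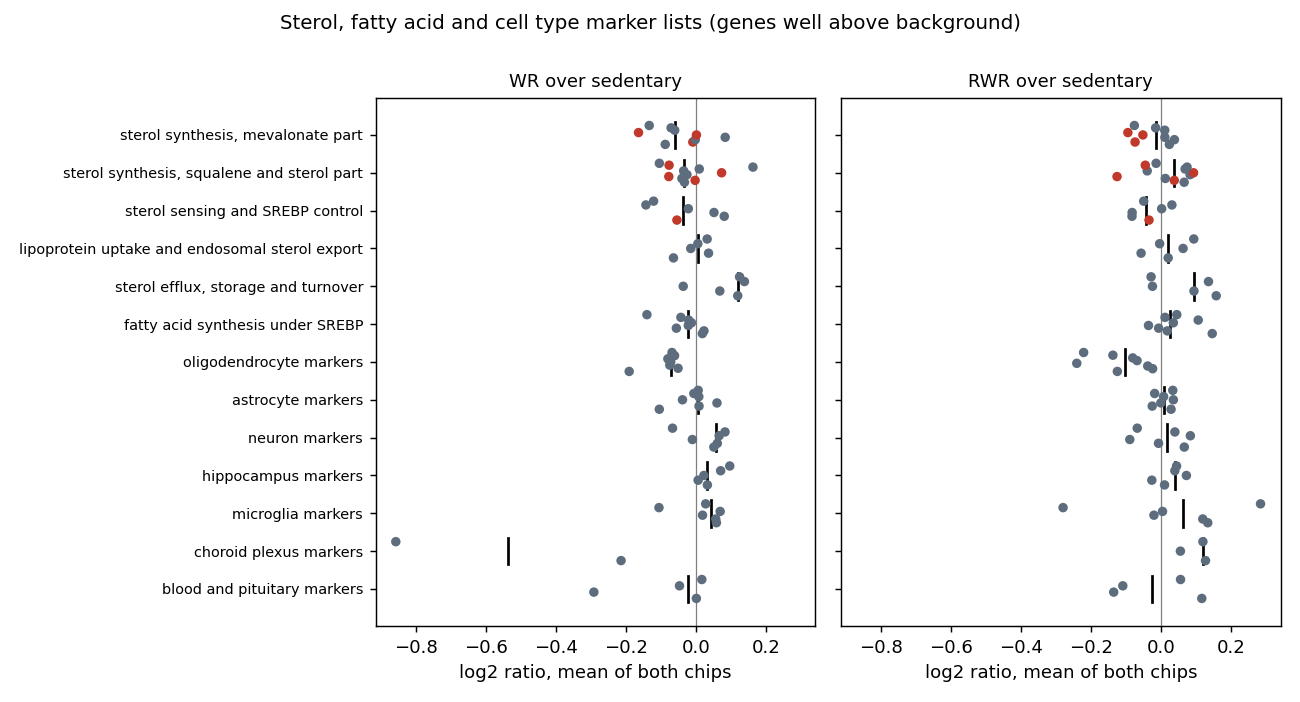
Mean log2 ratio of each gene well above background (points) in 6 sterol and fatty acid lists and 7 lists of cell type markers, for WR on the left and RWR on the right, with the median of each list as a black bar and the 8 cholesterol synthesis genes in red. The lipid lists lie around 0 in both panels, apart from the list of sterol efflux, storage and turnover, whose median over 5 genes is 0.12 in WR and 0.09 in RWR. All intervals of these genes hold 0, and the WR means of Abca1, Ch25h and Cyp27a1 are lower without background correction. The oligodendrocyte markers lie below 0 (medians -0.07 and -0.10), and the farthest point is Ttr at -0.86 in WR.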

How the data were processed

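Hippocampal RNA pools were hybridized by the authors to 4 chips in 2 colours on 1 slide, and the scans were processed with Feature Extraction 11.0.1.1. The deposited intensity is a spot's processed signal after background subtraction, spatial detrending and LOWESS dye normalization, and the log10 ratio they deposited divides Cy5 by Cy3 and comes with its error and p-value from the authors' error model for 1 chip. LOWESS centres each chip, so a shift common to most genes would not be seen. Signals were not scaled between chips. The array was designed on build rn4, and accessions were matched to RefSeq symbols (GRCr8): 10768 probes named 8899 genes.

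Without control and outlier spots, ratios were expressed as log2 of running over sedentary and averaged by probe. A call needed more than 1.5-fold, or less than 0.75-fold, and p under 0.01 on each chip of a pair; the cutoffs are those of the study, and the demand on each chip was set here. Intervals are 95% intervals of the pair mean. The members and lists were chosen with earlier results of these data known. Named genes were the members, any called gene of a list and, among genes well above background with equal signs on both chips, the 3 of a list with the largest ratio (2 for cell type markers). Some genes that this rule or the lists would name are not reported here. The code was tested on simulated data. Alternatives were loess after normexp (offset 50) or after no background correction, the deposited series matrix, median centring, all probes of a gene, a filter on dim probes, each chip left out, no p-value and a 1.2-fold threshold. Those for the wider lists were chosen after seeing the data. R 4.3.3, limma 3.58.1, Python 3.11.15 and pandas 2.3.3 were used.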

Additional observations from a re-analysis of the deposited data

Results flagged for a closer look

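Among the genes named, 4 lay on one side of 0 on both WR chips and on the other side on both RWR chips, and none of them is a cholesterol synthesis gene. The rule that named genes of the lists asked for equal signs on both chips of a pair, which favours this pattern. The share of all named genes with the pattern is not given here, so the count is a description only. The difference of RWR minus WR was not tested, since each group is 1 pool. Nr1h3, the sterol-sensing receptor LXR alpha, was at -0.07 and -0.22 in WR and at 0.05 and 0.0094 in RWR, a difference of 0.1737 on the log2 scale. Npc2 was at 0.05 and 0.02 in WR and at -0.09 and -0.02 in RWR, a difference of -0.0936. Gja1, the gap junction protein of astrocytes, was at -0.02 and -0.05 in WR and at 0.05 and 0.02 in RWR, a difference of 0.0733. Ttr was at -0.72 and -0.99 in WR and at 0.20 and 0.04 in RWR, a difference of 0.9775. In Nr1h3, Npc2 and Gja1, all intervals of the means held 0.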

How the results depend on the processing

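None of the 8 genes was called in either comparison under any of the 10 alternatives run, and the ratios past 1.5-fold remained 0 of 16 throughout. Of the 16 mean ratios, 16 kept their sign under both loess settings, the series matrix, median centring and the dim-probe filter, 15 with the median over all probes, and 11 or 9 with 1 chip of each pair left out. With no background correction or normexp, 3 genes were below 0 on both chips in WR, and in RWR 2 were below and 1 above; the median over all probes gave 2 below in RWR. The median difference of RWR minus WR was -0.0053 without background correction and 0.0021 with normexp. With 1 chip of a pair left out, the sign rests on the other chip and so on its dye: 2 to 5 genes were above and 3 to 6 below 0 in WR, and 4 to 5 above and 3 to 4 below in RWR. The members' median then ran from -0.0538 to 0.0083 in WR and from -0.0234 to 0.04 in RWR, the RWR minus WR median from 0.0064 to 0.0253, and the median of the wider lists from -0.027 to 0.0192 in WR and from -0.0082 to 0.0435 in RWR. The scalings moved the median of all named genes by at most 0.01. No paired analysis was possible because the chips of a pair repeat the same pools and replicate numbers do not mark rats. The number of chips, and the deposited error of about 0.20 per chip, limit what could be detected.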

Other observations

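The markers of other cell types that were not set beside the cholesterol genes above were described in the same way. Among 6 microglia markers, none was called, with medians of 0.04 in WR and 0.06 in RWR. Their summed signal was higher in the running pool on all 4 chips, by 0.0071 and 0.09 in WR and by 0.09 and 0.19 in RWR on the log2 scale. In RWR, Aif1 and C1qa, named after their values had been seen, had means of 0.13 and 0.12, and Cx3cr1 and Csf1r of 0.0040 and -0.02. The sum consists mainly of C1qa, Aif1 and P2ry12, with mean signals of 3774, 2129 and 1305, so it is not separate evidence from their ratios. P2ry12, the purinergic receptor of resting microglia, was at -0.0072 and 0.06 in WR and at 0.28 and 0.29 in RWR, with an RWR mean of 0.28 (95% interval -0.0010 to 0.57). Itgam, an integrin of microglia and other myeloid cells, ran the other way in RWR, at -0.07 and -0.49, with a mean of -0.28 (95% interval -0.59 to 0.03) that was -0.09 without background correction and -0.14 after normexp. Among 5 hippocampus markers the medians were 0.03 and 0.04, and Neurod1 and Wfs1, transcription factor of granule cells and protein of CA field neurons, had means of 0.02 and 0.10 in WR and of 0.07 and 0.04 in RWR.

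Among 5 measured markers of blood and pituitary, Prl, prolactin, was called lower in RWR, at -1.47 and -0.94, and was not well above background in both dyes. In WR it was at -1.52 and -0.44, with a mean of -0.98 (95% interval -1.65 to -0.32), and was not called. The RWR mean of -1.20 became -0.21 without background correction and -0.29 after normexp, both short of 0.75-fold, and the WR mean -0.17 and -0.13. Gh1, growth hormone, had a low mean signal of 65.5, with means of -0.29 in WR, from chips at -0.06 and -0.52, and -0.14 in RWR. Its WR mean was -0.11 without background correction and -0.08 after normexp, and its RWR mean -0.10 under each. Hbb, a globin of red cells, had means of -0.05 and -0.11. Folr1, a folate receptor of the choroid plexus, had means of -0.21 and 0.06, from a low signal.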
